A study of Mus musculus with 6 samples.

Results

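The SLC25 proteins are the mitochondrial carriers, the family that moves metabolites, nucleotides and cofactors across the mitochondrial inner membrane. Members were the rows of the deposited expression table whose symbol is Slc25a followed by a number, and 47 of the 53656 gene symbols in the table met that rule. Expression was measured by RNA sequencing of mouse oocytes that had been taken out of ovaries manually, in 3 wild-type (WT) libraries and 3 libraries of Khdc3 knockout (KO) oocytes. The Khdc3 product belongs to the subcortical maternal complex, a protein assembly of the egg and early embryo. The labels give no strain, age or treatment, no number of animals or pooled oocytes, and no design of the knockout allele. The study's title concerns the regulation of metabolism across generations, and the comparison here asked how mRNA of the mitochondrial carriers differed between KO and WT oocytes.

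Mitochondrial carriers share a fold of similar repeats that surround a central substrate site, and most of them exchange one solute for another. The ADP/ATP carriers bring ADP into the matrix and release the ATP made there, the phosphate carrier brings in phosphate for the same reaction, and other members link the matrix to the urea cycle, the malate-aspartate shuttle, fatty acid oxidation and cofactor supply. A few members act outside the inner membrane, among them the peroxisomal carrier Slc25a17 and the outer membrane protein Slc25a46. Mouse oocytes contain many mitochondria and are known to rely on mitochondrial oxidation of pyruvate for ATP.

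Levels are in RPKM, a read count divided by gene length and by library depth, and the depth obtained from these values was 34640170 to 43343444 reads per library. Khdc3 stood at 423, 425 and 502 RPKM in WT replicates 1, 2 and 3 and at 0.224, 0.217 and 0.113 RPKM in KO replicates 1, 2 and 3, as the genotype labels state. All 12 oocyte markers were tested and 0 were called, with summed levels of 16300 to 17400 RPKM in WT and 15500 to 16000 RPKM in KO. Markers of granulosa and cumulus cells were summed at 138 to 278 RPKM in WT and 314 to 424 RPKM in KO, with all 13 detected and 0 called. Of 11 stroma, smooth muscle and theca markers 8 were tested and 2 were called higher in KO, where 1.6% of all tested genes were. These were Acta2 and Nr5a1 (limma adjusted p 0.0337 and 0.0389, and 0.0133 to 0.128 with 1 library left out). The 11 markers summed to 10.2 to 19.9 RPKM in WT and 28.4 to 34.2 RPKM in KO. Erythroid markers summed to 17.5 to 73.2 RPKM in WT and 8.89 to 71.6 RPKM in KO. Endothelial and leukocyte markers summed to 15.1 to 15.4 RPKM in WT and 13.2 to 16.4 RPKM in KO, and 0 were called in either list. Pecam1 made up most of the latter sum, with means of 13.9 RPKM in WT and 12.8 RPKM in KO. Plvap averaged 1.27 and 1.85 RPKM, Cdh5 0.0506 and 0.15 RPKM, and Ptprc 0.0027 and 0.016 RPKM, in WT and KO. No listed marker was at 0 in all libraries, and the part of these cells in the carrier values was not tested. In a principal component analysis, component 2 (18.1% of the variance) set KO replicate 1 off from KO replicates 2 and 3. Whether libraries of one genotype derive from different animals is not stated in the labels, and the p-values therefore reflect spread between libraries that may be technical.

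The ADP/ATP carriers were the most abundant group of the family, and the coding sequence around their signature motif is shown because it separates the 3 genes at the base level. The 60-base windows below are the coding strand of the GRCm38 annotation, with the 18 bases that encode the motif RRRMMM in capitals, and each window spans an exon junction. Slc25a4 lies on the minus strand at chr8:46207619-46208455, Slc25a5 on the plus strand at chrX:36797819-36798388 and Slc25a31 on the plus strand at chr3:40722710-40724885.
Slc25a4: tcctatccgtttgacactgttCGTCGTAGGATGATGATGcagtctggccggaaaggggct
Slc25a5: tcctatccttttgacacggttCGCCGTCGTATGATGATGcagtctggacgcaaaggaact
Slc25a31: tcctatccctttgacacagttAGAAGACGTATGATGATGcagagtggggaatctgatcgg
Slc25a4 and Slc25a5 differed at 9 of the 60 bases, Slc25a5 and Slc25a31 at 20, and Slc25a4 and Slc25a31 at 22. Within the 18 motif bases the differences numbered 3, 4 and 6 in the same order, while the 3 genes encode the same 6 residues there. Over the whole annotated exons, 0.0% of the 50-base stretches of Slc25a4 and of Slc25a31 occur in another annotated gene, whereas 33.8% of those of Slc25a5 do. The genes that share them with Slc25a5 number 9, led by Gm5560 (21.1% of the stretches) and Gm5529 (16.2%). Only Slc25a5-ps among these 9 was matched by symbol in the table, at 0.0351 to 0.121 RPKM, so the Slc25a5 level is uncertain to the extent that reads could be split among copies.

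Across the 6 libraries the family covered a wide range of levels. Of the 47 members, 5 had a mean of 40 RPKM or more, 14 lay between 10 and 40 RPKM, 13 between 1 and 10 RPKM and 15 below 1 RPKM. Testing required that 3 or more of the 6 libraries reach an RPKM of 1, which 32 members did, and their median level was 11.3 RPKM against 6.97 RPKM over all 12272 genes tested. The family summed to 606, 625 and 618 RPKM in the WT libraries and to 621, 626 and 626 RPKM in the KO libraries. The genotypes overlapped in this sum, which made up 0.186% to 0.199% of all RPKM in a library. The 5 highest members (Slc25a5, Slc25a15, Slc25a31, Slc25a4 and Slc25a48) held 49.2% to 50.8% of it. Replicates were close: the median coefficient of variation within a genotype was 7.02% for tested members and 10.5% for all tested genes, from 2.81% for Slc25a26 to 17.4% for Slc25a36.

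**Figure D1:**
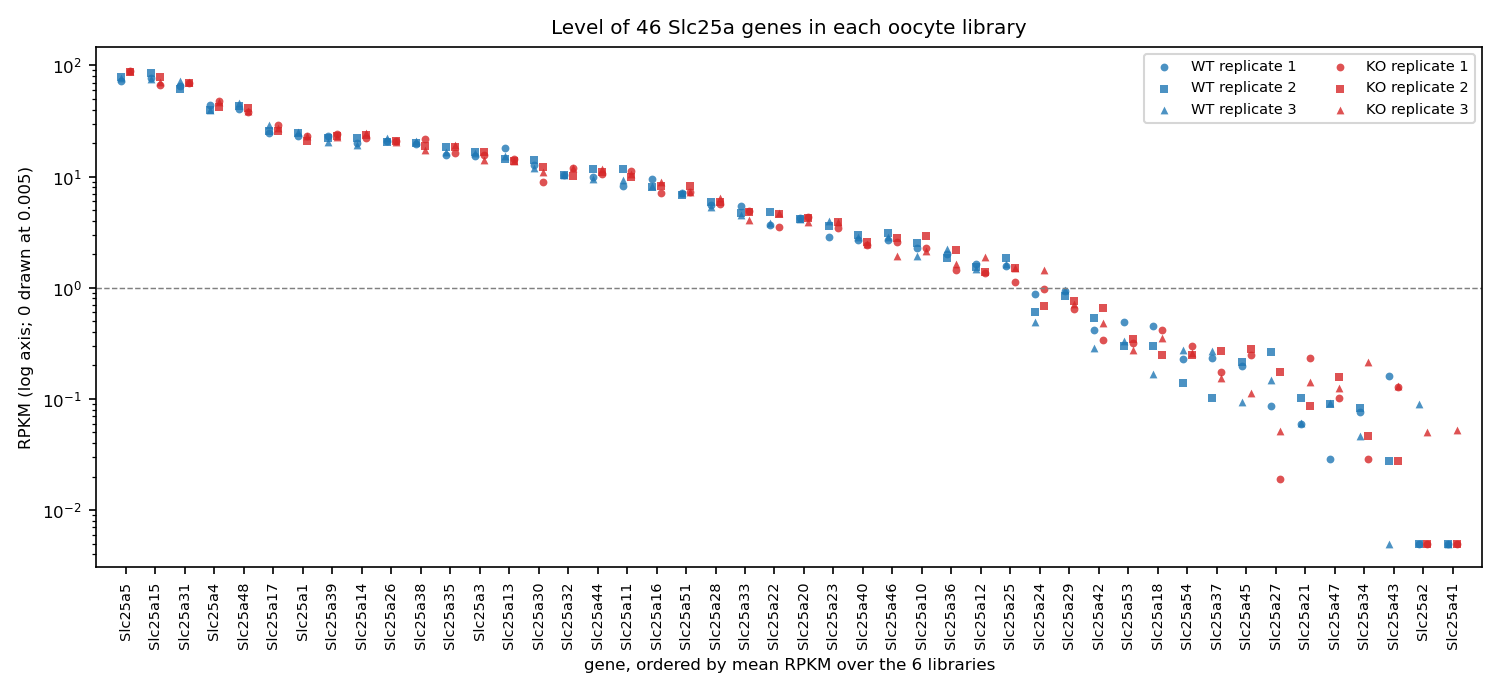
RPKM (log axis) of 46 Slc25a genes in the 3 WT and 3 KO libraries, 1 point per library, with values of 0 drawn at 0.005 and the dashed line at an RPKM of 1. Members run from Slc25a5 at a mean of 82.2 RPKM down to Slc25a41, which had reads in 1 library, and WT and KO points lie close together for members above the line.

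None of the 32 tested members was called in the comparison of KO with WT. The count was 0 of 32 at a Benjamini-Hochberg adjusted p under 0.05 in limma, where 2.74% of all tested genes were called (336 genes). By direction, 0 members were called higher, against 1.6% of all tested genes, and 0 lower, against 1.14%. With limma voom on reads recovered from the RPKM values, 0 of 29 members were called, against 3.31% of all genes in that fit. At an unadjusted p under 0.05 there were 2 members in limma (Slc25a5 and Slc25a14), or 6.25% of the family against 19.0% of all tested genes, and 2 in voom. The lowest adjusted p of a member in limma was 0.101, for Slc25a5. Without KO replicate 1, which stood apart, 0 members were called as well. In bulk samples such as these, fewer cells of a type and less RNA per cell cannot be told apart.

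The members' log2 changes (KO minus WT of log2(RPKM + 1), where the added 1 shrinks the change of low genes) ran from -0.26 for Slc25a30 to 0.23 for Slc25a5. Of the 32, 15 lay above 0 and 17 below it, so 46.9% lay above 0, where 53.1% of all tested genes did. The median change was -0.01 for members and 0.01 for all tested genes, and the median size of change was 0.09 and 0.12. Of all tested genes, 19.6% had a change larger in size than that of Slc25a30, and the smallest change among the 336 called genes was 0.28. On this scale of RPKM + 1, the 95% interval of the change stayed within 1.5-fold in either direction for 32 of 32 members. The bounds ran from -0.52 to 0.40, and 82.0% of all tested genes had such an interval. In voom the interval stayed within 1.5-fold for 27 of 29 members, the exceptions being Slc25a36 and Slc25a25, with bounds from -0.62 to 0.52. Slc25a1, Slc25a28 and Slc25a46 did not give whole reads and were not in the voom fit. The limma bounds leave room for changes smaller than 1.5-fold in RPKM + 1. For low members such as Slc25a25, Slc25a36 and Slc25a46 they leave room for larger ones in RPKM itself, as do the voom bounds of Slc25a36 and Slc25a25. The bounds therefore do not show that the levels were equal.

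**Figure D2:**
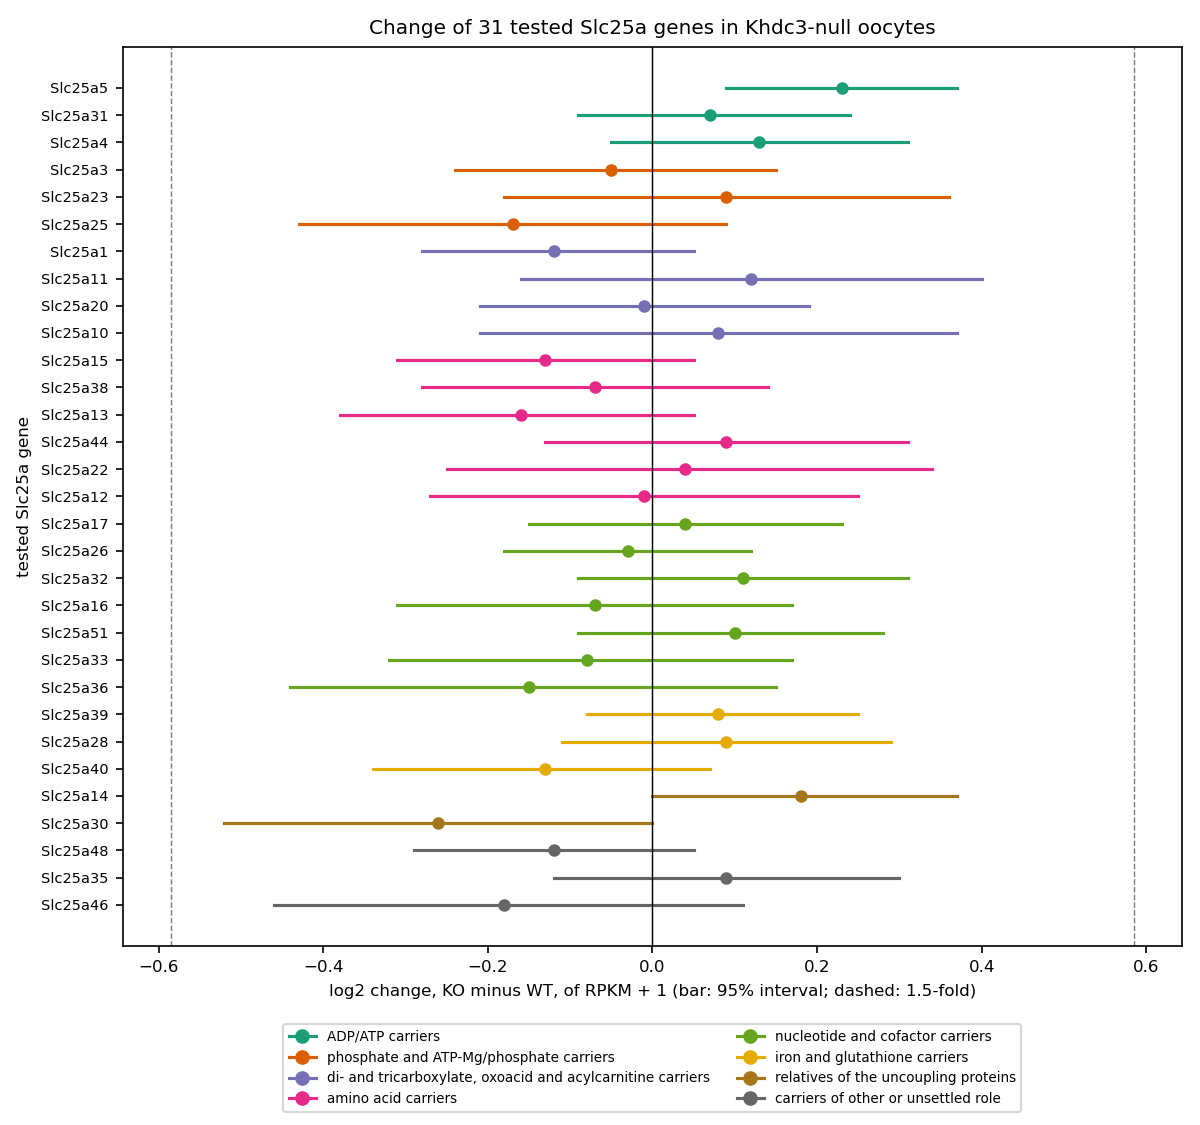
Change in log2(RPKM + 1) from WT to KO for 31 tested Slc25a genes, with 95% intervals from limma. Dashed lines mark 1.5-fold in RPKM + 1. Every interval lies inside the dashed lines, and the estimates spread on both sides of 0 from -0.26 to 0.23.

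**Figure D3:**
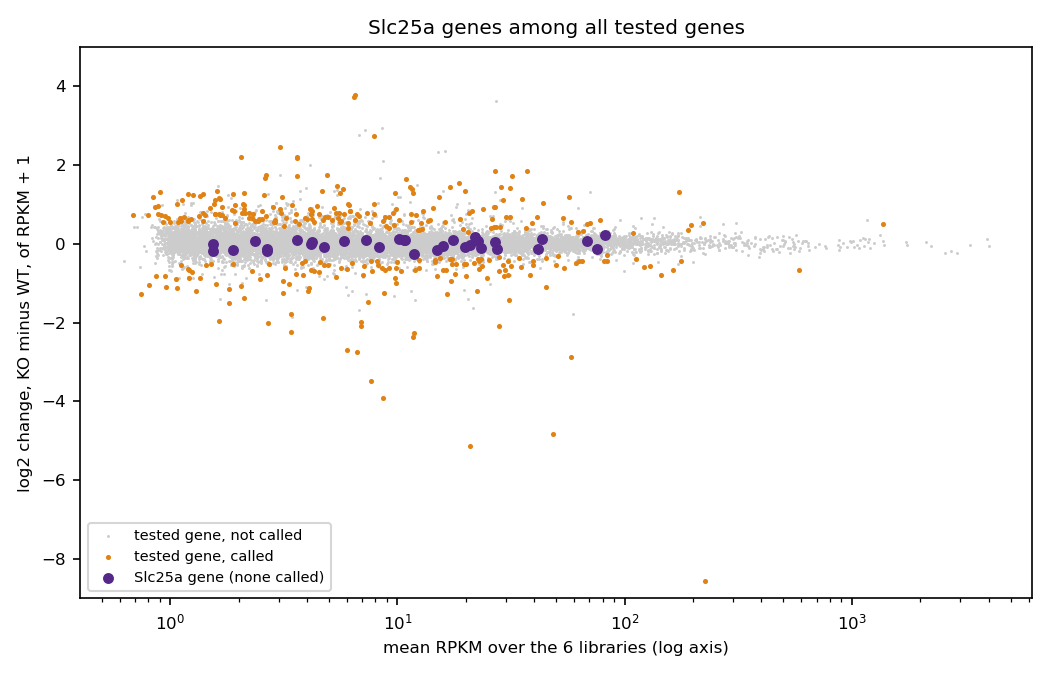
Mean RPKM over the 6 libraries (log axis) against the change in log2(RPKM + 1) from WT to KO for all 12272 tested genes, with the 336 called genes in orange and the 32 Slc25a genes in purple. The Slc25a genes lie in the band around 0, below the size of change of any called gene (0.28 or more).

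Among the ADP/ATP carriers, Slc25a5, the isoform of many dividing and non-muscle cells, stood at 71.7, 78.1 and 77.3 RPKM in WT replicates 1, 2 and 3 and at 89.7, 87.0 and 89.4 RPKM in KO replicates 1, 2 and 3. Every KO library was above every WT library. The WT mean was 75.7 ± 3.49 RPKM and the KO mean 88.7 ± 1.45 RPKM (SD, n = 3 each), a ratio of 1.17. The log2 change of 0.23 ± 0.06 (SE) had a 95% interval of 0.09 to 0.37 and did not pass after adjustment (limma, adjusted p = 0.101, unadjusted p = 0.0058). An exact two-sided permutation test gave p = 0.1, the smallest that 3 against 3 libraries allow. Without KO replicate 1 the change was 0.22 with an adjusted p of 0.113 (limma). By p-value the gene ranked 699 of the 12272 tested. The summed granulosa and cumulus markers given above separated the libraries in the same way, as did the summed stroma, smooth muscle and theca markers. Inha made up most of the granulosa and cumulus sum, at 203, 197 and 104 RPKM in WT and 227, 242 and 310 RPKM in KO. The part of these cells in the Slc25a5 value was not tested.

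Slc25a31, the isoform first known from male germ cells in the mouse, stood at 64.8, 61.8 and 72.4 RPKM in the WT libraries and at 69.0, 69.0 and 71.3 RPKM in the KO libraries. The highest library was a WT one and the groups overlapped, with a log2 change of 0.07 ± 0.07 (SE) and an adjusted p of 0.617 in limma. The change was 0.03 without WT replicate 2, 0.14 without WT replicate 3 and 0.03 with quantile normalization. Slc25a4, the isoform of heart and skeletal muscle, was at 44.3, 39.6 and 39.9 RPKM in WT and 47.4, 41.9 and 46.6 RPKM in KO. WT replicate 1 lay between the KO values, so the groups overlapped, and the log2 change was 0.13 ± 0.08 (SE; limma adjusted p = 0.391). The oocyte libraries thus held mRNA of all 3 ADP/ATP carriers, in the order Slc25a5, Slc25a31 and Slc25a4 in every library. How much of it came from the somatic cells whose markers were detected was not tested. The shares of their sum were 41.3% ± 2.0, 36.1% ± 1.9 and 22.6% ± 1.7 in WT (SD, n = 3). In KO these shares were 43.5% ± 0.45, 34.3% ± 0.71 and 22.2% ± 0.93, and the genotypes overlapped for each of them.

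Summed, the ADP/ATP carriers stood at 180.7, 179.5 and 189.6 RPKM in WT and at 206.0, 197.9 and 207.3 RPKM in KO, all 3 KO libraries above the WT ones. Their share of the family's RPKM was 29.8%, 28.7% and 30.7% in WT and 33.2%, 31.6% and 33.1% in KO. The amino acid carriers took 21.7%, 22.2% and 20.7% in WT and 19.3%, 20.6% and 19.5% in KO, where the WT libraries were all above the KO ones, by a narrow margin at the closest. The shares are parts of 1 whole, the groups of genes were made with results known, and no test was made of them.

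**Figure D4:**
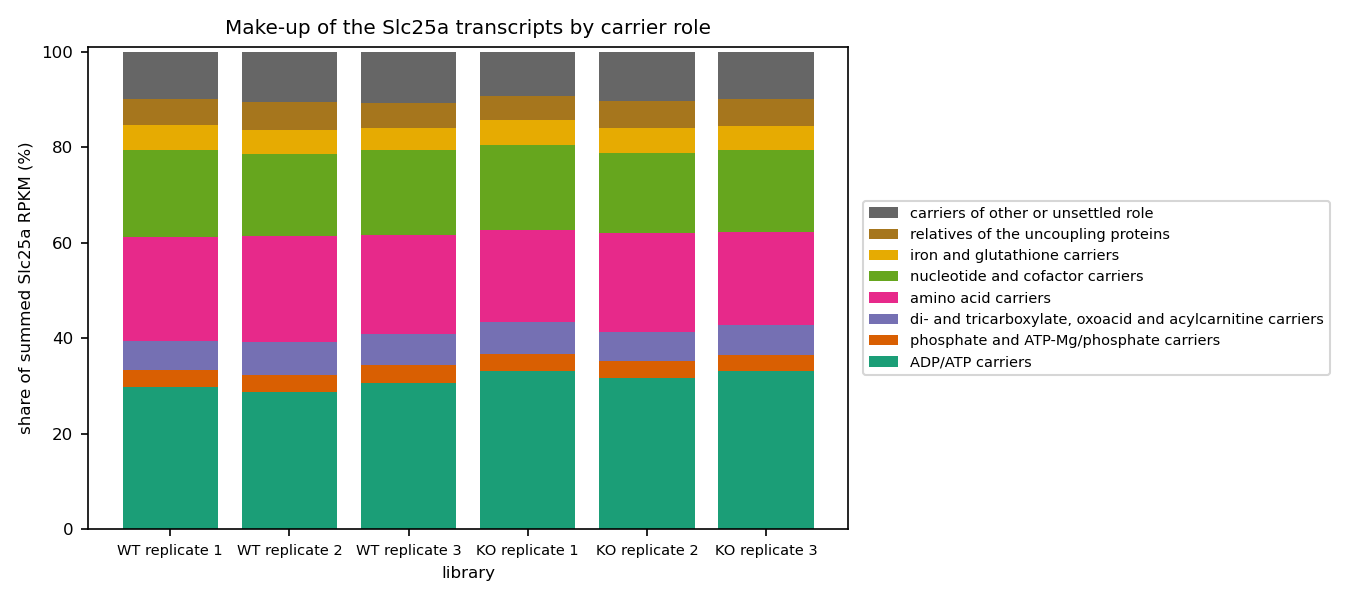
Share of the summed Slc25a RPKM held by each of the 8 role groups in each library, as stacked bars in percent. The ADP/ATP carriers hold 28.7% to 30.7% in WT and 31.6% to 33.2% in KO, and the amino acid carriers 20.7% to 22.2% in WT and 19.3% to 20.6% in KO.

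The 9 amino acid carriers were led by Slc25a15, which exchanges ornithine for citrulline and is known from the urea cycle in liver. It stood at 77.1, 84.6 and 76.1 RPKM in WT and 67.3, 78.6 and 71.5 RPKM in KO, so KO replicate 2 lay above WT replicates 1 and 3. The log2 change was -0.13 ± 0.08 (SE), with a 95% interval of -0.31 to 0.05 and a limma adjusted p of 0.408. Slc25a13, a calcium-regulated aspartate-glutamate carrier of the malate-aspartate shuttle, was at 18.1, 14.4 and 15.2 RPKM in WT and 14.4, 13.8 and 13.9 RPKM in KO. WT replicate 1 was the highest and the rest lay close together, with a log2 change of -0.16 ± 0.09 (SE) and an adjusted p of 0.378 in limma. Without WT replicate 1 the change was -0.07. The related aspartate-glutamate carrier Slc25a12 was near the filter, at a mean of 1.54 RPKM over the 6 libraries.

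The other tested amino acid carriers were Slc25a38, a glycine carrier needed for haem synthesis, with a mean of 19.8 RPKM over all libraries, Slc25a44, a carrier of branched-chain amino acids, with 10.7 RPKM, and the glutamate carrier Slc25a22 with 4.19 RPKM. Over the group, 2 of the 6 tested members lay above 0 and 4 below, none was called, and the changes ran from -0.16 to 0.09. Slc25a29, a carrier of basic amino acids, and Slc25a18, another glutamate carrier, had means of 0.809 and 0.321 RPKM and were not tested. Slc25a2, a second ornithine carrier, had 5 reads over the 3 WT libraries and 3 over the 3 KO libraries.

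Nucleotide and cofactor carriers numbered 9, of which 8 were tested. Slc25a17, which carries CoA, FAD and NAD in the peroxisomal membrane, was at 24.7, 25.9 and 28.8 RPKM in WT and 28.8, 25.6 and 27.4 RPKM in KO, and the groups overlapped over most of their range. The change was 0.04 ± 0.08 (log2, SE), and limma gave an adjusted p of 0.818.

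Slc25a26, which imports S-adenosylmethionine, had the tightest replicates of the tested family, at 20.8, 20.6 and 22.1 RPKM in WT and 20.7, 20.7 and 20.5 RPKM in KO. Its 95% interval ran from -0.18 to 0.12 on the log2 scale. The NAD carrier Slc25a51 was at 7.06, 6.78 and 7.14 RPKM in WT and 7.27, 8.14 and 7.24 RPKM in KO, and the KO libraries were all above the WT ones, by a narrow margin at the closest (limma adjusted p = 0.564). Slc25a32, known for folate and FAD transport, averaged 10.8 RPKM, Slc25a16, linked to CoA, 8.31 RPKM, and the pyrimidine nucleotide carriers Slc25a33 and Slc25a36 averaged 4.73 and 1.89 RPKM. In the group 3 tested members lay above 0 and 5 below, with changes of -0.15 to 0.11. Slc25a42, another carrier of CoA, stood at a mean of 0.455 RPKM and was not tested.

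Carriers of di- and tricarboxylates, oxoacids and acylcarnitine were led by Slc25a1, which exports citrate. It stood at 23.1, 24.4 and 25.0 RPKM in WT and 23.0, 20.8 and 23.0 RPKM in KO, so the lowest WT library lay just above the highest KO ones. The log2 change of -0.12 ± 0.07 (SE) had a 95% interval of -0.28 to 0.05, with a limma adjusted p of 0.424 and an exact two-sided permutation p of 0.1. The oxoglutarate carrier Slc25a11 averaged 10.2 RPKM over the 6 libraries, the carnitine-acylcarnitine carrier Slc25a20, which fatty acid oxidation depends on, 4.16 RPKM, and the dicarboxylate carrier Slc25a10 2.35 RPKM. For Slc25a20 the 95% interval of the log2 change was -0.21 to 0.19. The oxoadipate carrier Slc25a21 averaged 0.114 RPKM and was not tested.

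Slc25a3, which brings phosphate into the matrix for ATP synthesis, was at 15.3, 16.5 and 16.4 RPKM in WT and 15.7, 16.8 and 14 RPKM in KO. The highest and the lowest library were both KO, and the log2 change was -0.05 ± 0.08 (SE; limma adjusted p = 0.796). Of the ATP-Mg/phosphate carriers, which are regulated by calcium and adjust the matrix content of adenine nucleotides, Slc25a23 averaged 3.63 RPKM. Slc25a25 was at 1.58, 1.84 and 1.63 RPKM in WT and 1.13, 1.52 and 1.52 RPKM in KO. All its WT values were above its KO values, and the change was -0.17 ± 0.11 (log2, SE), with an adjusted p of 0.453 in limma and an exact two-sided permutation p of 0.1. It was -0.09 without KO replicate 1, -0.27 with a pseudocount of 0.1 and -0.28 in voom. Slc25a24, of the same group, was at 0.875, 0.61 and 0.49 RPKM in WT and 0.965, 0.678 and 1.43 RPKM in KO and did not reach the filter.

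Among the iron and glutathione carriers, Slc25a39, which imports glutathione, was at 23.2, 22.1 and 20.6 RPKM in WT and 24.3, 23.0 and 22.7 RPKM in KO, with WT replicate 1 above 2 of the KO libraries. Its log2 change was 0.08 ± 0.07 (SE; limma adjusted p = 0.57). Its close relative Slc25a40 was at 2.69, 2.97 and 2.84 RPKM in WT and 2.44, 2.57 and 2.47 RPKM in KO, every WT value above every KO value (log2 change -0.13 ± 0.09, limma adjusted p = 0.454). Both mitoferrins, which carry iron, were detected, Slc25a28 at a mean of 5.81 RPKM and Slc25a37, the form known from red cell precursors, at 0.201 RPKM.

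The relatives of the uncoupling proteins gave the lowest change among tested members and one of the highest in the fit to all 6 libraries. Slc25a14 was at 19.9, 22.4 and 19.4 RPKM in WT and 22.2, 23.8 and 24.5 RPKM in KO, where WT replicate 2 lay above KO replicate 1. The log2 change was 0.18 ± 0.08 (SE), with an unadjusted p of 0.049 and an adjusted p of 0.261 in limma. Slc25a30 was at 12.8, 14 and 12 RPKM in WT and 8.95, 12.1 and 11.1 RPKM in KO. KO replicate 1 was the lowest by a margin and KO replicate 2 lay above WT replicate 3. The change was -0.26 ± 0.11 (log2, SE), and its adjusted p in limma was 0.27. Without KO replicate 1, which stood apart, it was -0.15, and that of Slc25a13 was then lower, at -0.18. The third relative, Slc25a27, averaged 0.124 RPKM and was not tested.

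Slc25a48 was the highest of the 8 members grouped here as of other or unsettled role, outside the groups above. It stood at 40.5, 43.3 and 46.3 RPKM in WT and 38.3, 41.7 and 39.1 RPKM in KO. KO replicate 2 lay above WT replicate 1, and the log2 change was -0.12 ± 0.07 (SE; limma adjusted p = 0.398). Slc25a35 averaged 17.6 RPKM and Slc25a46, an outer membrane protein known for its part in mitochondrial shape, 2.65 RPKM. Slc25a35 shares 31.3% of its exon bases with Rangrf on the opposite strand, and since the sources used here do not say whether reads were counted by strand, its level is uncertain.

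In all, 5 of the 32 tested members (15.6%) had WT and KO values that did not overlap, where 25.8% of all tested genes did. Slc25a5 and Slc25a51 were the 2 higher in KO (13.5% of all tested genes were so), and Slc25a1, Slc25a40 and Slc25a25 the 3 lower (12.2%). Slc25a40, Slc25a51 and, above, Slc25a26 and Slc25a24 were given in every library after their values were seen. The highest values were spread over all libraries. WT replicate 1 held the highest value of 4 tested members, WT replicate 2 of 8 and WT replicate 3 of 6. KO replicate 1 held that of 7, KO replicate 2 of 3 and KO replicate 3 of 4. The lowest value fell in KO replicate 1 for 9 members and in KO replicate 3 for 7, against 3 to 5 in each of the other libraries.

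The 15 members below the filter are weakly covered, and 5 of them averaged under 0.1 RPKM. Slc25a53 averaged 0.344 RPKM, Slc25a54 0.242 RPKM, Slc25a45 0.191 RPKM, Slc25a47 0.0991 RPKM, Slc25a34 0.0827 RPKM and Slc25a43 0.0793 RPKM. Slc25a41 had 3 reads in KO replicate 3 and 0 in every other library, and a count of 0 allows up to 3 reads, or 0.0651 RPKM in WT replicate 1, by counting error alone. Slc25a29 was at 0.942, 0.85 and 0.949 RPKM in WT and 0.645, 0.76 and 0.708 RPKM in KO, and Slc25a47 at 0.029, 0.0907 and 0.0912 RPKM in WT and 0.102, 0.158 and 0.124 RPKM in KO. Neither pair of groups overlapped, in opposite directions. Among all tested genes 25.8% did not overlap, and no such share was computed for genes below the filter. Slc25a47 rested on 3, 11 and 11 reads in WT and 12, 19 and 16 reads in KO. Both members too were named after their values were seen. When all genes with reads were fitted without a filter, 0 of 47 members were called, against 0.275% of all genes in that fit, and the adjusted p was 0.598 for Slc25a29 and 0.5 for Slc25a47 (limma).

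By position, 4 pairs of members lie within 100 kb of each other in the GRCm38 annotation. Slc25a29 and Slc25a47 are 162 bases apart on opposite strands of chromosome 12, Slc25a41 and Slc25a23 are 2056 bases apart on chromosome 17, Slc25a54 and Slc25a24 are 6461 bases apart on chromosome 3, and Slc25a43 and Slc25a5 are 18448 bases apart on the plus strand of the X chromosome. The last pair joins the highest member of the family and one with 12 reads over the WT libraries and 21 over the KO libraries. On chromosome 9, which holds Khdc3, the members Slc25a36, Slc25a20 and Slc25a38 lie 24, 35.6 and 47 Mb from it. Of the 47 members, 11 have a called gene within 1 Mb, and none of these 3 does. The share of all genes with a called gene that near was not computed, so the count is a description only.

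Because Slc25a5 and Slc25a43 are neighbours at opposite ends of the range of levels, their promoters are shown, as 300 bases of the plus strand from RefSeq (GRCm38.p6), 250 before to 50 after the start, with each CG in capitals. The Slc25a5 window is chrX:36795347-36795646 and holds 18 CG, and the Slc25a43 window is chrX:36743382-36743681 and holds 11. Both are placed by the RefSeq start. The annotation used for positions above starts Slc25a5 at 36795651, just past its window, and Slc25a43 at 36743659, inside its window.
Slc25a5: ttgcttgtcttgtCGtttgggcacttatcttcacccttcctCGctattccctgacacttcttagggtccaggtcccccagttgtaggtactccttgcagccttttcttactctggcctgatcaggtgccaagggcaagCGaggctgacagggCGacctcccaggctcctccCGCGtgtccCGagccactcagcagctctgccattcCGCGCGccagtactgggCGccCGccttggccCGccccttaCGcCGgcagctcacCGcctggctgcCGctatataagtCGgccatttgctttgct
Slc25a43: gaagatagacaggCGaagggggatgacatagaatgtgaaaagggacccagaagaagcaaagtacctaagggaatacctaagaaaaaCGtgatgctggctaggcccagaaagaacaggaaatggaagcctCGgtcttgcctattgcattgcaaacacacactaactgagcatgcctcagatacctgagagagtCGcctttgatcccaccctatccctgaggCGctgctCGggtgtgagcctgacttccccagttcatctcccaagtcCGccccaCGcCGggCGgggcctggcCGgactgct
Promoters were matched by symbol for 36 of the 47 members. The observed to expected ratio of CG had a median of 0.78 in the promoters of 25 tested members and 0.49 in those of 11 members below the filter. Among protein-coding genes the medians were 0.79 for 7857 tested and 0.31 for 7258 not tested. A ratio of 0.6 or more was found for 64.0% of the tested and 27.3% of the untested members, against 75.5% and 27.1% of the protein-coding genes. These figures describe the sequence and draw on no measurement of methylation.

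The order of levels depends in part on the length used for each gene. For the 42 members that gave whole reads, the deposited values follow the merged length of all annotated exons, and for 9 of these that length is at least 2 times that of the annotated transcript with the longest coding sequence. The length of Slc25a3 was 5550 bases against 1341 bases for that transcript. Its level of 15.8 RPKM therefore became 65.4 and its rank moved from 14 to 4. Only the length was exchanged, and reads outside that transcript stayed in the value, so it is not the level of the transcript itself. Slc25a26 moved from rank 11 to 6, and Slc25a15 (124 per transcript length) changed places with Slc25a5 (109). Of the 10 highest members 8 were the same by both lengths, 6 members shifted by 5 ranks or more (2 of them, Slc25a1 and Slc25a28, among those without whole reads, so that their length is uncertain), and Spearman's rho over the 47 was 0.98 as a description. This choice leaves the change between KO and WT of a gene untouched, apart from the pseudocount, and was examined after the data were seen.

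**Figure D5:**
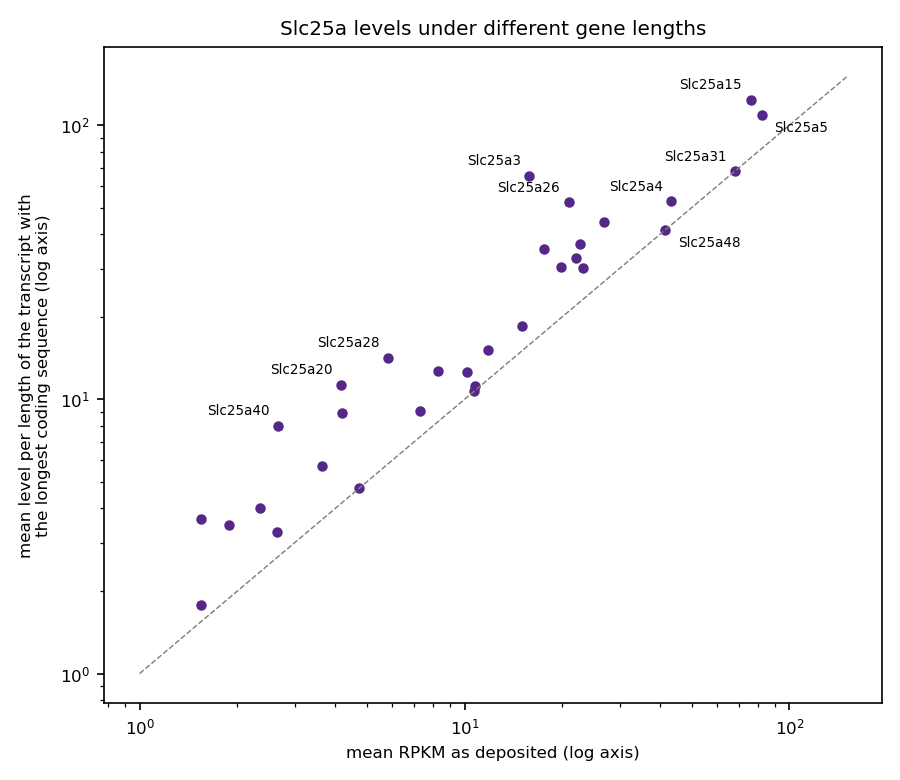
Deposited RPKM against the level per length of the transcript with the longest coding sequence (both log axes, means over the 6 libraries) for Slc25a genes with a mean RPKM of 1 or more. Points on the diagonal have the same length by both measures, and Slc25a3 lies farthest above it, at 15.8 against 65.4.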

How the data were processed

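RNA of 6 mouse oocyte libraries, 3 WT and 3 KO by their titles, was measured. Per the labels' protocols, a PicoPure kit served for RNA isolation and the NEB Ultra II Directional kit for library preparation. The build GRCm38.p6 was used with STAR 2.6.0c, featureCounts 1.6.2 and FastQC 0.11.7, per the submitters' processing notes. The strand setting and annotation of the counting are not given in the sources used here. The authors deposited 1 table of RPKM values, of which 19437 of 53656 symbols were at 0 in all libraries.

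A pseudocount of 1 was added to the RPKM values, and their log2 was fitted in limma 3.58.1 under R 4.3.3 (lmFit, eBayes with a trended prior, genotype as the only term). The fit held 12272 genes, those reaching an RPKM of 1 in 3 or more libraries. Benjamini-Hochberg adjustment ran over all of these, with calls made below 0.05. Single values were also compared by exact two-sided permutation tests. Symbols were matched to GENCODE M21 (28447), and its merged exon lengths turned the RPKM of 92.4% of 19630 matched genes with reads into whole reads, within 0.01. These reads gave the depths and the voom alternative, and 42 members came out whole. Intervals and floors from reads cover counting error only. Read counts of each pair of same-genotype libraries differed beyond counting noise, with chi-square at least 14.6 times its degrees of freedom. Deviations of same-numbered WT and KO libraries correlated at -0.016, 0.213 and -0.034, against -0.155 to 0.153 for differently numbered ones. The value of replicate 2 was the highest, but the other same-numbered values were below 0. The numbers were not used as pairs in the reported fit. Python 3.11.15, numpy 2.4.6, pandas 2.3.3, scipy 1.17.1 and matplotlib 3.10.9 were used.

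The members, the role groups and the lists were chosen with earlier results of these data known. Values in all libraries are given for called members, the 10 highest by mean RPKM, the 10 with the smallest p and the highest of each role group, 14 members in all. Of these, 1 is not reported here by itself and is not drawn where genes are labelled, though counts and sums include it. Alternatives were other pseudocounts, filters, scalings, priors, thresholds, a replicate block, voom and each library left out.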

Additional observations from a re-analysis of the deposited data

How the results depend on the processing

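No Slc25a gene was called, higher or lower, under any of the 18 alternatives. The lowest adjusted p of any member was 0.0609, for Slc25a5 with library weights, and over the alternatives its log2 change was 0.188 to 0.249 and its adjusted p 0.0609 to 0.257. The background of called genes moved more: 336 in the reported fit, 94 with no filter on low values, 222 with a filter of RPKM 5, 662 with library weights, 693 at an adjusted p under 0.1, and 151 to 289 with 1 library left out, the lowest without KO replicate 3. With the replicate number as a block 320 genes and 0 members were called and the median member change stayed at -0.011, so the block changed no call of a member. The median member change was -0.011 as reported, 0.034 with no filter and 0.058 with the filter of RPKM 5, where other members enter or leave the count, and -0.021 to 0.01 with 1 library left out. Of the 14 members chosen by the naming rule, 2 changed sign: Slc25a17 ranged from -0.004 (without WT replicate 1) to 0.102 and Slc25a3 from -0.105 to 0.018 (without KO replicate 3) with 1 library left out, and the cause was not tested. With 1 library left out, changes also ran from -0.147 to -0.069 for Slc25a1 (without KO replicate 2), from -0.188 to -0.077 for Slc25a15 (without KO replicate 1), from 0.039 (without WT replicate 3) to 0.122 for Slc25a39 and from -0.17 to -0.075 for Slc25a48 (without WT replicate 3). The Slc25a15 change was -0.081 without WT replicate 2, and that of Slc25a39 was 0.055 with library weights.

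With 3 libraries a genotype, an exact permutation test cannot give a p under 0.1. Tested members with whole reads had 269 to 19342 reads per library, while members below the filter had from 0 to 213 reads per library. Slc25a5 shares exon sequence with annotated copies, Slc25a35 and Slc25a33 overlap genes on the opposite strand, and 5 members (Slc25a1, Slc25a28, Slc25a46, Slc25a45 and Slc25a27) did not give whole reads with the annotation used.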

Other observations

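Genes that work beside the carriers were read from lists made with earlier results known. Of 9 genes for import of carriers into the inner membrane (the Tom70 receptor, small Tim chaperones and the Tim22 insertion complex), all were tested and 0 were called in limma, with a median log2 change of 0.01 and summed levels of 116 to 124 RPKM in WT and 116 to 139 RPKM in KO. Of 5 genes of the same protein family with other symbols, 3 were tested and 0 called. Ucp2, an uncoupling protein relative, was at 5.53, 4.14 and 2.58 RPKM in WT and 5.79, 6.71 and 5.98 RPKM in KO, with all KO values above the WT ones (log2 change 0.53 ± 0.20, limma adjusted p = 0.204).

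Among 16 other transporters and channels of the inner and outer mitochondrial membranes, 13 were tested. Of these, 0 were called higher (1.6% of all tested genes were) and 1 lower (1.14%). That gene was Sfxn4, of the sideroflexin family, which fell from 16.8, 10.5 and 10.9 RPKM in WT to 5.52, 4.05 and 4.52 RPKM in KO (log2 change -1.25 ± 0.18, limma adjusted p = 0.0122). Its adjusted p was 0.0503 without KO replicate 3 and at most 0.0495 without any other single library. Transcripts of the mitochondrial genome itself were summed at 721 to 836 RPKM in WT and 965 to 1320 RPKM in KO. The WT means of single transcripts ran from 0.36 RPKM for mt-Nd4l to 251 RPKM for mt-Cytb, so the highest ones set the sum. Of 13 such transcripts, 12 were tested, all 12 lay above 0 (53.1% of all tested genes did), and 2 were called higher (1.6% of all tested genes were). Both encode subunits of respiratory complex I: mt-Nd5 (41.5 ± 3.27 to 65.9 ± 7.68 RPKM, limma adjusted p = 0.0158) and mt-Nd1 (179 ± 14.3 to 262 ± 37.7 RPKM, limma adjusted p = 0.0433; SD, n = 3). Of the somatic markers, 13 of 13 granulosa and cumulus markers (median log2 change 0.60, 0 called) lay above 0. So did 7 of 8 tested stroma, smooth muscle and theca markers (median 0.74, 2 called higher, against 1.6% of all tested genes). Of 3 tested erythroid markers 0 lay above 0 (median -0.4), and of 2 tested endothelial and leukocyte markers 1 did. Of 12 oocyte markers 2 lay above 0 (median -0.11). The part of any of these cells in the difference of the mitochondrial transcripts was not tested. KO replicate 1 was the highest library for both mitochondrial transcripts, and without it the adjusted p was 0.0224 for mt-Nd5 and 0.0417 for mt-Nd1. Left-out libraries ended the call of mt-Nd5 in 3 cases (WT replicate 2, WT replicate 3 and KO replicate 2, 0.0521 to 0.0581) and that of mt-Nd1 in the 5 cases other than KO replicate 1 (0.0622 to 0.145), and whether this difference is tied to the carriers was not tested.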
